A study of Canis lupus familiaris with 6 samples.

Results

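NF-κB is a family of dimeric transcription factors, and the genes examined here encode its subunits and proteins listed as its feedback inhibitors. The set named 10 genes: the subunits NFKB1, NFKB2, REL, RELA and RELB, and, listed as inhibitors, NFKBIA, NFKBIB, NFKBIE, NFKBIZ and TNFAIP3. Of these, NFKBIZ encodes an atypical nuclear protein that acts on target genes, so a change in it is not read as a change in inhibition. Members were the non-control probes whose gene name in the scanner file of single culture replicate 1 equalled one of these names. The array held 15 such probes for 9 of the 10 genes, of 43603 probes in all, and no probe carried the name NFKBIE. Of these 15 probes, 14 were tested, among 26623 tested probes. A probe was tested when its signal was well above background on all arrays of at least 1 group.

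The cells were MDCK cells, an epithelial line from dog kidney. All 6 samples were cells of the MDCK-pTR line with GFP-RasV12, a constitutively active Ras that tetracycline induces, and with mCherry-β-catenin Δ131, a β-catenin without its N-terminal part that keeps Wnt signalling on. They are called β-cat ΔN/RasV12 cells here. In single culture (n = 3) they were grown by themselves, and in mix culture (n = 3) with 10 surrounding MDCK mCherry-β-catenin Δ131 cells per RasV12 cell. The surrounding cells thus carried the same β-catenin mutant and lacked RasV12, so no group here lacked the mutant. After 24 h of tetracycline on collagen-coated dishes, the GFP-positive fraction was collected by flow cytometry and total RNA from it was hybridised to a 1-colour array. The comparison therefore asks how NF-κB pathway transcripts of the GFP-positive fraction differed when the neighbours were β-cat ΔN cells rather than β-cat ΔN/RasV12 cells. The purity of that fraction is not stated in the sources used here, and carry-over of neighbours into the mix culture samples was not tested. The labels number the replicates but do not say that they came from separate cultures, so p-values measure only the spread between these samples.

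In resting cells, NF-κB dimers are held in the cytoplasm by inhibitors of the IκB family. Signals from cytokine or Toll-like receptors activate the IκB kinase, which marks IκB proteins for destruction and lets the dimers enter the nucleus. The dimers then switch on chemokine, survival and adhesion genes, and also several of their own inhibitors, which closes a negative feedback loop.

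The arrays were spread over a pair of slides, slide 1 with replicate 1 of both cultures and slide 2 with replicates 2 and 3, which had been scanned at another resolution. Both slides held both groups. The slides differed at 12566 of 26623 tested probes (47.2%). The comparison was therefore read from limma without a block, which is the test the study's unpaired design implies, and from limma with the slide as a block. Signals are given as log2 of the background-subtracted intensity minus the 75th percentile of the same array, so 0 is the array's own upper quartile. Between 61.1% and 65.7% of the spots were well above background and none was saturated. The epithelial markers CDH1, EPCAM, KRT18 and CLDN4 were well above background on all 6 arrays, with a summed linear signal of 397 to 488 times the 75th percentile in single culture and 306 to 397 times in mix culture. With the slide block CDH1 was lower in mix culture by a log2 change of -0.47 (adjusted p = 0.0444, 0.0759 with the replicate block) and CLDN4 by -0.87 (adjusted p = 0.0136, 0.022 with the replicate block). The part of the epithelial markers in the results below was not tested. Of the markers of other cell types, PTPRC and LYZ (leukocytes), TEK (endothelium) and PDGFRA and DCN (fibroblasts) were well above background on no array, while 3 of 5 leukocyte, 2 of 4 endothelial and 2 of 5 fibroblast markers were so on all 6. The summed signal of the leukocyte list was 1.148 to 1.403 times the 75th percentile in single culture and 1.102 to 1.226 times in mix culture. That of the endothelial list was 5.443 to 14.001 times in single culture and 4.62 to 14.3 times in mix culture, most of it from VWF, and that of the fibroblast list 0.778 to 1.75 and 0.655 to 1.38 times. None of the tested markers of these 3 lists passed in either fit.

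Without a block, 0 of the 14 member probes passed an adjusted p of 0.05 in limma, beside 0.871% of all tested probes. At an unadjusted p of 0.05, 5 of the 14 passed in limma, beside 8.71% of all tested probes. With the methods' t-test, run on the same signals and without a slide term, 4 passed. The share over all tested probes was not worked out for that test, so this count cannot be judged. With the slide as a block, 5 of the 14 member probes passed, all of them higher in mix culture, against 7.22% of all tested probes in either direction. They were both probes of NFKBIA, both probes of NFKBIZ and the probe of REL. In the same 5 probes the 3 mix culture arrays lay above the 3 single culture arrays without overlap, as they did at 7.84% of all tested probes. With the replicate number as a block 4 of the 14 passed, those of NFKBIA and NFKBIZ, against 5.3% of all tested probes. On slide 2 alone 2 of the 14 passed, both NFKBIZ, against 3.72%. With the authors' table of values 5 of the 14 passed, the same 5 probes as with the slide block, against 15.3%. That table is centred per probe within each slide and was fitted without a block, so the fit does not account for the slide difference already removed. Its p-values are therefore too small, and it is no separate check on the slide block. The median log2 change was 0.15 over the 14 member probes and -0.05 over all tested probes.

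**Figure D1:**
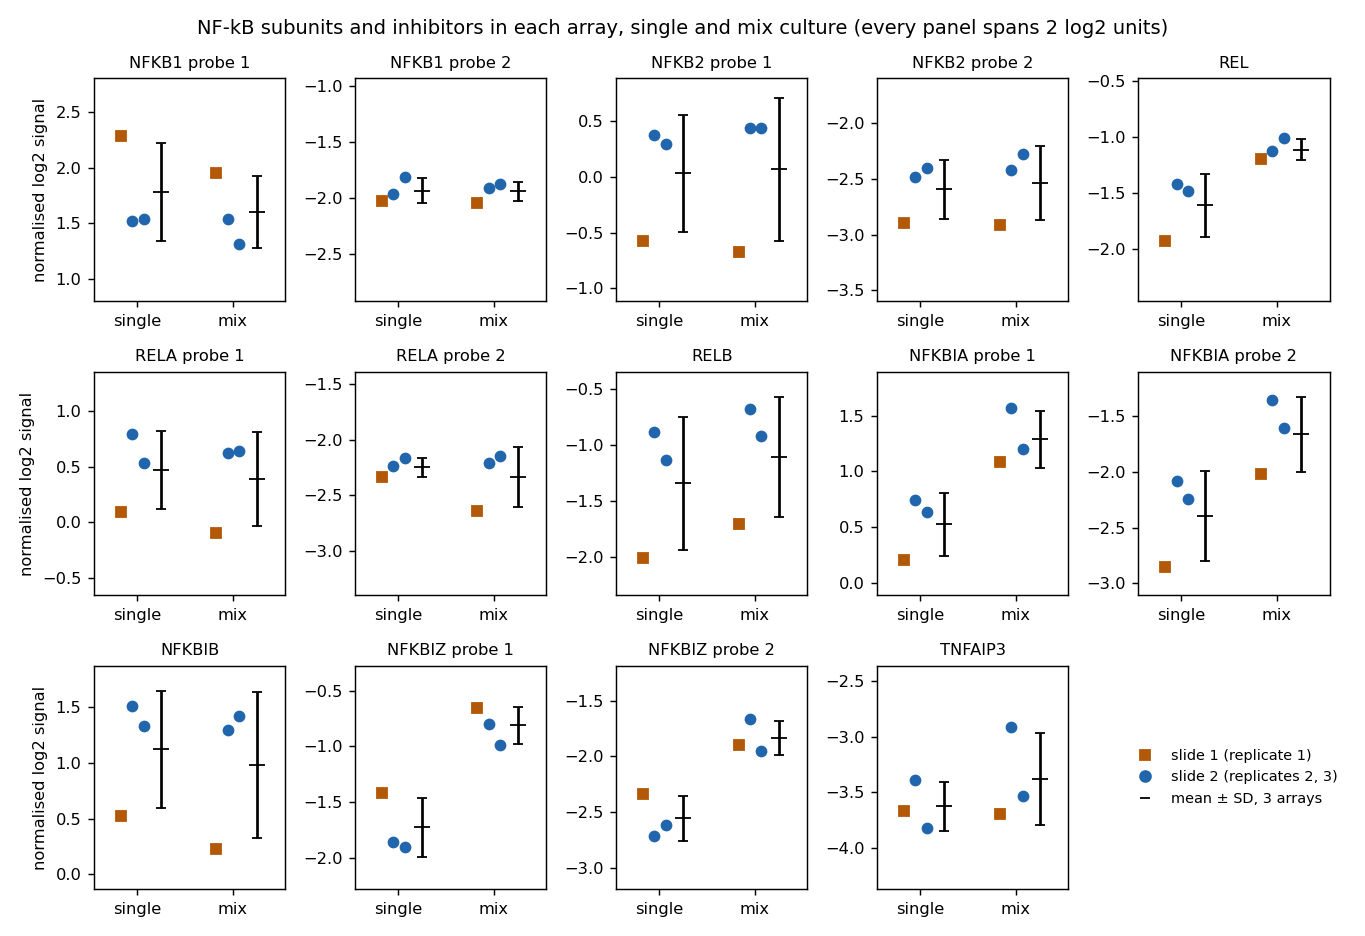
Normalised log2 signal (y axis, relative to the array's 75th percentile) of the 14 tested member probes in single and mix culture. Squares are slide 1 and circles slide 2, and bars give the mean ± SD of 3 arrays. In the panels of NFKBIA, NFKBIZ and REL all 3 mix culture arrays lie above all 3 single culture arrays, and in the other panels the groups overlap. Probes of a gene are numbered as in the text.

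NFKBIA encodes IκBα, the classical inhibitor that binds RelA dimers and is itself a direct NF-κB target. It was read by a pair of probes at separate positions of transcript ENSCAFT00000021292, on the minus strand of CanFam3.1, probe 1 at chr8:14101519-14101578 and probe 2 at chr8:14103181-14103240. Which exon or untranslated region these positions fall in was not determined here. Their sequences are shown because both reported a higher level in mix culture although they share no bases of the transcript and differ in GC content (45% and 60%).
NFKBIA probe 1: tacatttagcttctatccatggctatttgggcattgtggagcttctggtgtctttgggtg
NFKBIA probe 2: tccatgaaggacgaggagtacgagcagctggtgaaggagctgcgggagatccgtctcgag

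On probe 1 the normalised log2 signal of NFKBIA was 0.21, 0.74 and 0.63 in single culture replicates 1 to 3 and 1.09, 1.57 and 1.20 in mix culture replicates 1 to 3. The lowest mix culture array thus lay above the highest single culture array. The mean was 0.53 ± 0.28 (SD, n = 3) in single culture and 1.29 ± 0.25 (SD, n = 3) in mix culture, a 1.69-fold difference. Without a block its log2 change was 0.76 with an SE of 0.21 (limma, adjusted p = 0.278). With the slide block the same change had an SE of 0.13 and a 95% interval of 0.46 to 1.06 (limma, adjusted p = 0.0125).

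On probe 2 NFKBIA rose by a log2 change of 0.73 with the slide block, a 1.66-fold difference (limma, adjusted p = 0.00955, 0.474 without a block). Its signals were -2.85, -2.09 and -2.24 in single culture and -2.02, -1.36 and -1.60 in mix culture. The difference was of like size on both slides. Slide 1 gave 0.88 on probe 1 and 0.83 on probe 2, and slide 2 gave 0.70 and 0.68. With the replicate number as a block in place of the slide, both probes still passed (adjusted p = 0.0146 and 0.0133). On slide 2 alone, neither did. When 1 array was left out of the slide-block fit, both probes lost their call without single culture replicate 1, without single culture replicate 3 or without mix culture replicate 1. Over the 6 fits the adjusted p lay between 0.0156 and 0.072 on probe 1 and between 0.0195 and 0.0629 on probe 2. Without either slide 1 array the slide term absorbs the other, so those fits repeat the comparison on slide 2 alone and are not separate checks.

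NFKBIZ encodes IκBζ, an atypical nuclear IκB protein that is induced by NF-κB and acts on a second wave of target genes. Both of its probes lay on transcript ENSCAFT00000015308, probe 1 at chr33:8154878-8154937 and probe 2 at chr33:8154458-8154517. On probe 1 the log2 signal was -1.42, -1.86 and -1.90 in single culture and -0.66, -0.80 and -0.99 in mix culture. Every mix culture array lay above every single culture array, and slide 1 read highest in both cultures. The mean went from -1.73 ± 0.27 (SD, n = 3) to -0.81 ± 0.17 (SD, n = 3), a 1.89-fold difference. Of all tested probes, 97.9% had a lower change. The size of the members' changes depended on the processing. The normexp setting took the median spot signal, added an offset of 50 to every signal and used quantile normalisation. With it the log2 change was 0.51 and 0.31 on the NFKBIZ probes, 0.68 and 0.31 on the NFKBIA probes and 0.24 for REL.

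For probe 1 of NFKBIZ, limma gave a log2 change of 0.92 with an SE of 0.19 and an adjusted p of 0.119 without a block. With the slide block the 95% interval was 0.66 to 1.17 (adjusted p = 0.00295). This was the member probe that passed with the slide block (largest adjusted p 0.0277) whichever of the 6 arrays was left out. It also passed with the replicate block (adjusted p = 0.0065) and on slide 2 alone (adjusted p = 0.00938), which the fits without a slide 1 array repeat.

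Probe 2 of NFKBIZ read -2.33, -2.72 and -2.62 in single culture and -1.89, -1.66 and -1.95 in mix culture. Its 1.65-fold rise passed with the slide block (limma, adjusted p = 0.0201) and the replicate block (0.0357), and not without a block (0.186). Within slides the change was 0.44 on slide 1 and 0.86 on slide 2. The slide-block call of probe 2 was lost without single culture replicate 2 or 3 and without mix culture replicate 2 or 3, with adjusted p up to 0.0964.

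REL encodes c-Rel, a subunit with a transactivation domain that is itself NF-κB-inducible in several cell types. It was the subunit whose groups did not overlap. Its 1 probe lay on transcript ENSCAFT00000004779 at chr10:61023584-61023643, and it is shown because the call for REL rests on this sequence alone.
REL probe: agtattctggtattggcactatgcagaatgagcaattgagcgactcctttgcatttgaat

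The REL log2 signal was -1.94, -1.42 and -1.48 in single culture and -1.20, -1.13 and -1.01 in mix culture. Single culture replicate 1, on slide 1, was the lowest of the 6 arrays. The mean was -1.61 ± 0.28 (SD, n = 3) in single culture and -1.11 ± 0.095 (SD, n = 3) in mix culture, a 1.42-fold difference. The log2 change of 0.50 had an SE of 0.19 without a block (limma, adjusted p = 0.494). With the slide block its 95% interval was 0.23 to 0.77 (adjusted p = 0.0412), close to the threshold. The change was 0.73 on slide 1 and 0.38 on slide 2. It did not pass with the replicate block (adjusted p = 0.0773), nor with the slide block when any 1 array was left out (adjusted p between 0.0636 and 0.171).

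**Figure D2:**
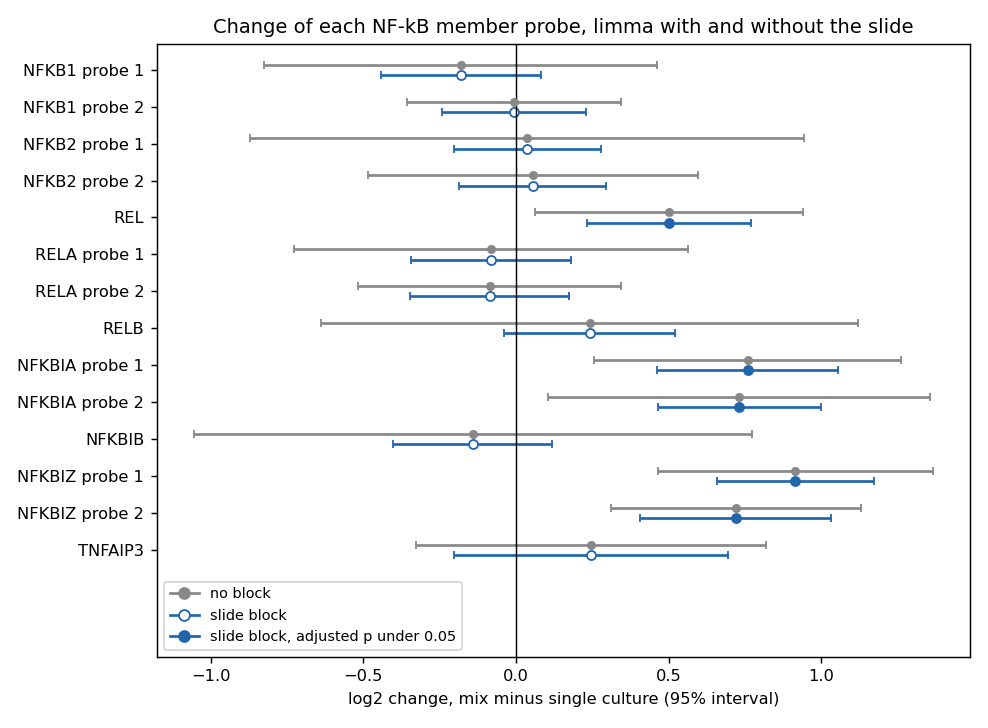
Log2 change (x axis, mix minus single culture) of each tested member probe with its 95% interval from limma, in grey without a block and in blue with the slide block. Filled blue points mark the 5 probes with an adjusted p under 0.05 with the slide block, those of REL, NFKBIA and NFKBIZ. The point estimates of the 2 fits coincide and the slide-block intervals are narrower.

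RELA encodes p65, the transactivating subunit of the classical dimer. Both of its probes, at chr18:51557987-51558046 (probe 1) and chr18:51552609-51552668 (probe 2), lay on transcript ENSCAFT00000021166. They are shown as the subunit most often taken to stand for NF-κB, for which no probe passed in any fit run.
RELA probe 1: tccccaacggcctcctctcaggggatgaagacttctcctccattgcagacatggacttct
RELA probe 2: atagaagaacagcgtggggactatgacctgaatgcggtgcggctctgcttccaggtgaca

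RELA probe 1 read 0.09, 0.79 and 0.53 in single culture and -0.09, 0.62 and 0.64 in mix culture. Probe 2 read -2.34, -2.24 and -2.17 in single culture and -2.64, -2.21 and -2.15 in mix culture. The groups overlapped on both. With the slide block the 95% interval of the log2 change ran from -0.34 to 0.18 on probe 1 and from -0.35 to 0.17 on probe 2 (limma, adjusted p = 0.67 and 0.65). The upper bounds of both intervals lay below the change fitted for REL, 0.50. A direct test of one probe against another was not made.

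NFKB1 encodes p105, the precursor of p50, which pairs with p65. Probe 1 (chr32:24040545-24040604) read 2.29, 1.52 and 1.54 in single culture and 1.95, 1.54 and 1.31 in mix culture. On this probe both slide 1 arrays lay above all slide 2 arrays, whichever the culture. The fitted log2 change was -0.18, with a slide-block interval of -0.44 to 0.08 (limma, adjusted p = 0.344). Probe 2 of NFKB1 (chr32:23988914-23988973) had a log2 change of -0.01 with an interval of -0.24 to 0.23.

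NFKB2 encodes p100, which is processed to p52 in the alternative pathway, and RELB is the partner of p52. The NFKB2 probes, at chr28:14909658-14909717 and chr28:14906386-14906554, had log2 changes of 0.04 and 0.06, with slide-block intervals of -0.20 to 0.28 and -0.18 to 0.30. The RELB probe (chr1:110437345-110437404) read -2.01, -0.89 and -1.13 in single culture and -1.71, -0.68 and -0.92 in mix culture. RELB was thus higher in mix culture within each pair of same-numbered arrays, by 0.31, 0.21 and 0.21, while the groups overlapped both over all 6 arrays and within slide 2. The RELB change of 0.24 did not pass with the slide block (interval -0.04 to 0.52, limma, adjusted p = 0.247) or the replicate block (0.253).

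NFKBIB encodes IκBβ, an inhibitor that is less subject to the fast feedback loop than IκBα. Its probe aligned across chr1:114207870-114208811 and so spans a splice junction in the design's alignment. It read 0.53, 1.51 and 1.33 in single culture and 0.23, 1.29 and 1.42 in mix culture, a log2 change of -0.14 with a slide-block interval of -0.40 to 0.12 (limma, adjusted p = 0.448). The whole NFKBIB interval lay below that of either NFKBIA probe, 0.46 to 1.06 and 0.46 to 1.00, though the difference between the genes was not tested.

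TNFAIP3 encodes A20, a ubiquitin-editing enzyme that shuts off signalling upstream of the IκB kinase. Its tested probe (chr1:30259728-30259787) was dim, with intensities of 16.2, 15.9 and 12.2 in single culture and 18.0, 24.0 and 13.9 in mix culture. The highest array was mix culture replicate 2, and the groups overlapped. Its log2 change was 0.25, with a wide slide-block interval of -0.20 to 0.69 (limma, adjusted p = 0.445). Within slides TNFAIP3 differed by -0.03 on slide 1 and 0.38 on slide 2. The second TNFAIP3 probe (chr1:30260949-30261008) was not well above background on any array and was not tested.

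**Figure D3:**
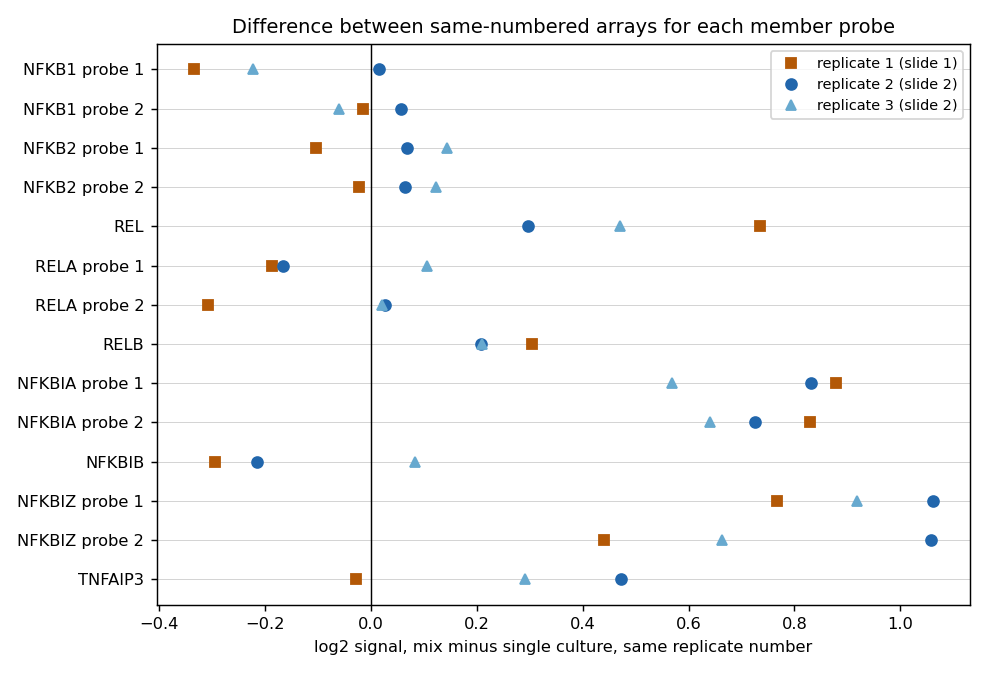
Difference in log2 signal (x axis, mix minus single culture) between arrays of the same replicate number for each tested member probe. For NFKBIA, NFKBIZ, REL and RELB all 3 differences are above 0, with those of NFKBIA between 0.57 and 0.88 over both probes, while RELA, NFKB1 and NFKBIB have differences on both sides of 0.

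The remaining pathway genes were read from lists of upstream kinases, adaptors and ubiquitin ligases, other inhibitors, and target genes, with the brightest tested probe standing for a gene. On that reading 3 of the 9 tested member genes rose with the slide block and none fell, beside 7.22% of all tested probes in either direction. With the replicate block 2 of the 9 rose, REL being lost, beside 5.3% of all tested probes. With the slide block 1 of 9 kinases, 2 of 14 adaptors and ubiquitin ligases and 1 of 15 other inhibitors rose and none fell, which for kinases and other inhibitors is near the share over all probes. With the replicate block 0 kinases, 0 adaptors or ligases and 1 other inhibitor passed. Of 24 tested target genes 3 rose and 4 fell with the slide block, and 3 rose and 3 fell with the replicate block. The median log2 change was 0.24 for the member genes, 0.15 for kinases, 0.03 for adaptors and ligases, 0.04 for other inhibitors and 0.12 for target genes. Without a block, CCL20 and PLAU, both target genes, were the genes of these lists that passed.

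**Figure D4:**
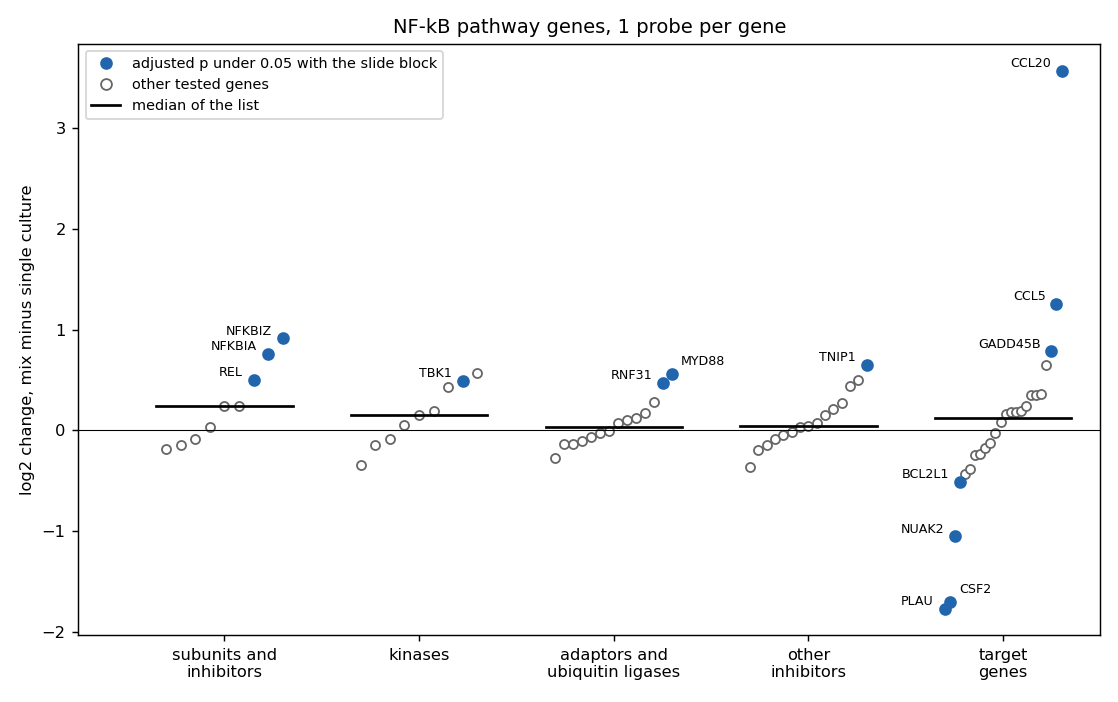
Log2 change (y axis, mix minus single culture) of every tested gene of the 5 lists, 1 probe per gene, ordered by size within a list. Filled points passed with the slide block and are named, open points did not, and bars are list medians. Among target genes CCL20 stands at 3.57 and PLAU at -1.77, while 3 of 9 subunit and inhibitor genes are filled, all above 0.

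Among the other inhibitors, TNIP1 rose with the slide block. It encodes ABIN1, an adaptor that works with A20. TNIP1 read intensities of 4244, 3338 and 3036 in single culture and 7395, 5209 and 4946 in mix culture on its brightest probe. All mix culture arrays were brighter, and the log2 change was 0.65 (limma, adjusted p = 0.157 without a block, 0.0107 with the slide block, 0.0251 with the replicate block). The other TNIP1 probes changed by 0.65 and 0.59, and both passed with the slide block (adjusted p = 0.016 and 0.0433), the latter not with the replicate block (0.0329 and 0.0759). NKRF, a repressor of NF-κB target promoters, had a log2 change of -0.36 without overlap of the groups and did not pass with the slide block (adjusted p = 0.153).

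Upstream, TBK1, an IκB-kinase-related enzyme, rose by 0.49 with the slide block (limma, adjusted p = 0.0411, 0.375 without a block) and did not pass with the replicate block (0.0779). Its second probe changed by 0.35 and did not pass (slide block, adjusted p = 0.102). TAB3, an adaptor of the TAK1 kinase, had a change of 0.43 and did not pass with the slide block (adjusted p = 0.105). The classical kinase gene IKBKB had a change of 0.19 (slide block, adjusted p = 0.358). MYD88, the adaptor of Toll-like and interleukin-1 receptors, rose by 0.56 with the slide block (adjusted p = 0.0286) and stood at 0.0549 with the replicate block. RNF31, the catalytic subunit of the linear ubiquitin ligase complex, had a log2 change of 0.48 that passed with the slide block (adjusted p = 0.0327). Its groups overlapped when the slides were pooled, while within each slide every mix culture array lay above every single culture array. RNF31 did not pass with the replicate block (0.0645) or without a block (0.841).

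Among target genes, the chemokine gene CCL20 had intensities of 4.89, 7.41 and 3.65 in single culture and 86.3, 59.7 and 49.0 in mix culture. It was well above background on 2 of 3 single culture arrays and on all mix culture arrays. Its log2 change was 3.57 with an SE of 0.29 (limma without a block, adjusted p = 0.00295), measured against single culture signals close to background. With normexp the change was 1.02 (adjusted p = 0.0116). CCL5, another chemokine gene, rose by 1.26 with the slide block (adjusted p = 0.00333) from dim single culture intensities of 14.1, 10.8 and 7.59. The other tested chemokine genes of the list, CCL2, CXCL10 and CX3CL1, changed by 0.64, -0.18 and 0.18. None of them passed with the slide block (adjusted p = 0.134, 0.355 and 0.415). GADD45B, a stress-response gene, rose by 0.79 (slide block, adjusted p = 0.00746).

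Other genes of the target list moved the opposite way. PLAU, which encodes the urokinase plasminogen activator, read intensities of 238, 176 and 223 in single culture and 116, 44.3 and 53.2 in mix culture. Its log2 change was -1.77 with an SE of 0.27 (limma without a block, adjusted p = 0.0355), and a second PLAU probe changed by -1.72 (adjusted p = 0.00823). The first PLAU probe lost its call without a block when any array other than mix culture replicate 1 was left out, with adjusted p up to 0.198. CSF2, the gene of the cytokine GM-CSF, changed by -1.70 (adjusted p = 0.0621 without a block and 0.00722 with the slide block). NUAK2 and BCL2L1 were lower with the slide block by log2 changes of -1.05 and -0.51 (adjusted p = 0.00168 and 0.0272). With the replicate block NUAK2 passed (0.00423) and BCL2L1 did not (0.0522). CXCL8, IL6, IL1A, IL1B, TNF, LTB, CSF1, VCAM1, CD83, MMP9 and LCN2 were not well above background on all arrays of either group and were not tested.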

How the data were processed

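The authors deposited 1 scanner file per array, with background-subtracted spot intensity from Agilent Feature Extraction (11.5.1.1 for slide 1, 12.1.1.1 for slide 2, per the file headers), and a table of log2 values of the same arrays whose scale and steps are not stated in the sources used here. In the deposited log2 table each slide's values are centred per probe (slide 1 columns sum to 0), and the mix culture replicate 2 and 3 columns match each other's scanner file (r = 0.973 and 0.976 over 25613 probes), so it served only as an alternative. Intensity was scaled by each array's 75th percentile (161 to 233) on the log2 scale, outlier spots (5 to 9 per array) and control spots were left out, and spots of a probe were averaged. Probes were fitted with limma 3.58.1 (R 4.3.3), with Benjamini-Hochberg adjustment over all 26623 probes tested and a threshold of 0.05. The script was tested on simulated data. In bulk RNA, fewer cells of a type and less RNA per cell cannot be told apart. With 3 arrays per group, their number limits the precision. Deviations of same-numbered arrays from their group means correlated at 0.801, 0.53 and 0.572. On slide 2 arrays of different number correlated at 0.61 and 0.632, so these values do not show that the numbers are pairs. The replicate block, which pairs arrays by number and contains the slide, was run as an alternative only. Alternatives covered normalisation, filtering, blocks, the authors' table, the methods' t-test, 1 mean per gene and leaving out each array. Leaving out arrays with the slide block was added after seeing the data. Named genes were all members and, of each other list, the genes that passed and the 2 largest changes without overlap among genes well above background on all arrays. IKBKB, RNF31, CCL5, CCL2, CXCL10, CX3CL1, GADD45B, NUAK2 and BCL2L1 were named after their values were seen. Members and lists were chosen with earlier results of these data known.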

Additional observations from a re-analysis of the deposited data

How the results depend on the processing

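The count of member probes that passed depended on whether the slide entered the fit. It was 0 of 14 without a block, and also 0 with quantile or normexp normalisation, with no filter on dim probes, with the filter on all 6 arrays, with the methods' t-test and with any 1 array left out. It was 5 with the slide block and with the authors' table, whose values are centred within each slide. It was 4 with the replicate block and with mix culture replicates 2 and 3 exchanged in that pairing, and 2 on slide 2 alone. Leaving out 1 array of the slide-block fit gave 1 to 3, the lowest without single culture replicate 3. Without either slide 1 array that fit repeats slide 2 alone. Over all probes 232 passed without a block, 1922 with the slide block, 1411 with the replicate block, 1458 with the exchanged pairing, 997 on slide 2 alone, 4077 with the authors' table, 134 with normexp, 142 with the filter on all 6 arrays, 8 with the methods' t-test, and 91 to 247 with 1 array left out. The methods' t-test was run on the signals scaled here, without a slide term, so its counts are not the study's own. The fitted log2 changes of the member probes were the same with and without the slide block. The median SE over all tested probes was 0.213 without a block and 0.12 with the slide block. The cause of the differing counts was not tested.

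Without a block, leaving out 1 array turned the sign of small changes: NFKB1 ranged from -0.36 to 0.0725, NFKB2 from -0.27 to 0.41, RELA from -0.27 to 0.16, RELB from -0.0940 to 0.54 and NFKBIB from -0.44 to 0.23. The changes of NFKBIA, NFKBIZ and REL stayed above 0 in each of these fits. CCL20 did not pass with the methods' t-test (adjusted p = 0.124) and was not tested with the filter on all 6 arrays, and it passed in the other alternatives run. PLAU did not pass with normexp (0.0578), with no filter (0.0532) or with the methods' t-test (0.248).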
